A study of Homo sapiens with 15 samples.

Results

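Cells on day 11 of a laminin-based cardiac protocol were compared with the stem cells of day 4, before the first differentiation signal. The study calls the day 11 cells committed cardiac progenitors. Its single-cell data of that day held more mesenchymal and fibroblast cells than progenitors, and fewer epithelial and endothelial cells. The comparison used the 3 libraries of each day, 6 of the 15 bulk RNA-seq libraries of the series, and 21187 of the 48777 genes listed passed the filter on low counts. All libraries came from H1, an established human embryonic stem cell line, so that every value describes a single line. The day 4 cells (plates 1, 2 and 5) had grown to confluence on dishes coated with LN521+LN221, a pair of recombinant laminins, in stem cell medium. The day 11 cells (plates 2, 5 and 6) had stayed on the same coating and had in between received RPMI with B27 lacking insulin, CHIR99021, which activates Wnt signalling by inhibiting glycogen synthase kinase, and later IWP2, which blocks the secretion of Wnt ligands. Time in culture, medium and both compounds changed together between the days, and their parts cannot be told apart. The labels describe all 6 samples as differentiated H1 cells, yet the day 4 libraries carried the pluripotency factors at high levels and the cardiac factors near 0.

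A pluripotent stem cell is held in its state by a small network of transcription factors around OCT4, SOX2 and NANOG, which keep each other and many further stem cell genes switched on. A pulse of Wnt signalling followed by its inhibition carries such cells through mesoderm to cardiac progenitors, in which GATA, T-box, HAND and NKX2-5 factors switch on the genes of the contractile apparatus. Stem cells also divide fast, with a short first gap phase, and a product meant for transplantation is examined for stem cell and proliferation genes that remain on.

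Values below are TPM, a level of transcripts corrected for gene length and library size, as deposited, given for plates 1, 2 and 5 on day 4 and for plates 2, 5 and 6 on day 11. A log2 fold change is the fitted day 11 level over the day 4 level on the log2 scale, from edgeR's quasi-likelihood test on the counts, with its standard error (SE) and a p-value adjusted over all genes tested. The threshold was an adjusted p under 0.05. Library totals lay between 22867831 and 31859256 counts on day 4 and between 20066395 and 24738492 counts on day 11, and each of 3 sequencing lanes held 1 library of each day. Libraries of the same day correlated with r between 0.952 and 0.988 across genes and libraries of different days with r between 0.811 and 0.827 (genes are not independent replicates). The library of plate 5 on day 11 stood apart in sarcomere genes, with 31766 summed TPM against 11130 and 9209. Plate 6 of day 11 was highest in mesenchymal genes, with 12598 summed TPM against 7448 and 4931. Across genes plates 5 and 6 of day 11 correlated least (r 0.952), and plate 2 correlated with them at 0.972 and 0.979. Results that rest on plate 5 of day 11 are given with and without it.

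Day 11 cells differed from day 4 cells at a large share of all genes. At the threshold 4889 genes (23.1%) were higher and 5041 genes (23.8%) were lower on day 11, and 3381 and 3390 of them changed by more than 1 on the log2 scale. Without plate 5 of day 11 the counts at the threshold were 5434 and 5486, and without plate 6 of day 11 they were 5377 and 5569. Every day 11 library lay above every day 4 library at 6049 genes (28.6%) and below at 6207 genes (29.3%), and 9796 of the 9930 genes past the threshold were among these. From below 1 TPM in every day 4 library to at least 10 TPM in every day 11 library went 121 genes, 106 of them protein-coding, and the opposite course was taken by 102 genes, 57 of them protein-coding. For 7332 genes (34.6%) the 95% interval of the change lay within a 2-fold change either way. These are bulk samples, in which fewer cells of a type and less RNA per cell cannot be told apart.

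**Figure D1:**
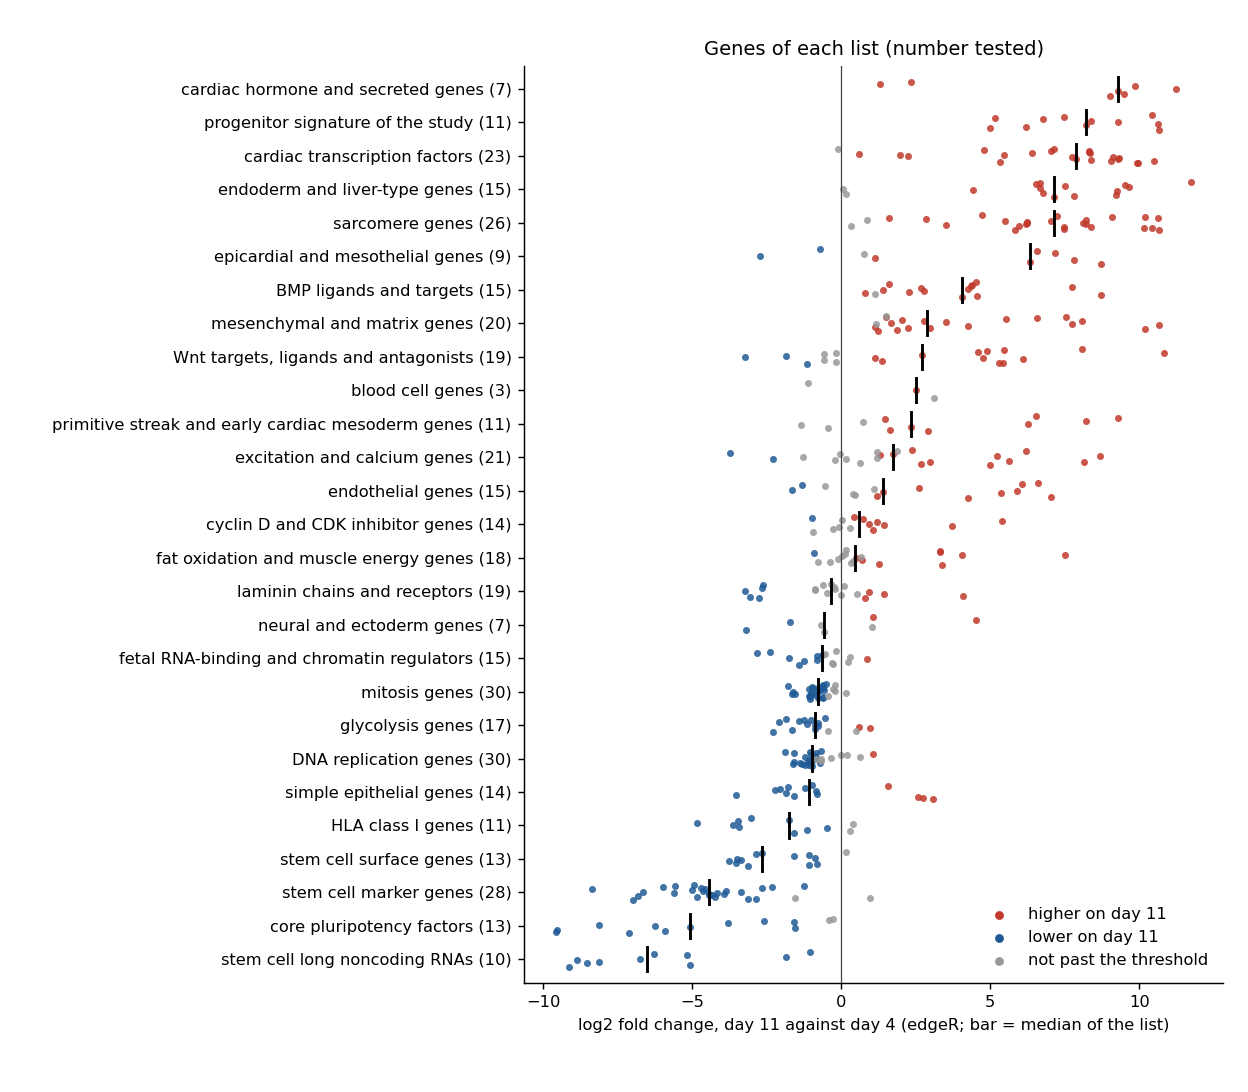
Log2 fold change of day 11 over day 4 (x axis) for every tested member of each gene list (rows, with the number tested); red points were higher and blue points lower at an adjusted p under 0.05 (edgeR), grey points did not pass, and the black bar is the list's median. The median over all 21187 genes was 0.04, so that lists whose bar lies far from 0 moved apart from the bulk of genes: cardiac hormone, transcription factor and sarcomere genes to the right, stem cell lists to the left.

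The core pluripotency factors were lower on day 11 at 11 of 13 genes, with a median log2 fold change of −5.07 beside 0.04 over all genes tested. SOX2, the partner of OCT4 on DNA, stood at 1007, 866 and 841 TPM on day 4 and 2.24, 0.843 and 0.572 TPM on day 11 (log2 fold change −9.58, SE 0.45, adjusted p 3.28e-06). POU5F1, which encodes OCT4, stood at 1138, 1154 and 1486 TPM on day 4 and 7.69, 8.56 and 11.5 TPM on day 11 (log2 fold change −7.13, SE 0.26, adjusted p 7.80e-07). For both genes every day 11 library lay far below every day 4 library. PRDM14, a repressor of differentiation genes, stood at 292, 266 and 343 TPM on day 4 and 0.279, 0.552 and 0.392 TPM on day 11 (log2 fold change −9.56, SE 0.26, adjusted p 3.67e-07), with 4, 7 and 6 reads left on day 11. NANOG, the third factor of the network, was less abundant from the start, at 29.8, 44.3 and 52.4 TPM on day 4 and 0.0632, 0.0714 and 1.9 TPM on day 11 (log2 fold change −5.93, SE 0.99, adjusted p 0.00269). Plate 6 held most of the NANOG reads on day 11, and the days did not overlap. Without plate 6 of day 11 the log2 fold change of NANOG was −9.29, and without plate 2 that of SOX2 was −10.36. OTX2, a homeobox factor of the epiblast, kept 7.42% of its mean day 4 TPM. POU5F1 shares exon positions with other annotated genes, and since the strand setting of the counting was not given, reads of such partners cannot be told apart. POU5F1 also has processed copies elsewhere in the genome.

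Members of the same network differed widely in how much remained. ZFP42 (REX1) kept 17.2% of its day 4 TPM, at 320.3, 304 and 295 TPM on day 4 and 56, 40.5 and 61.3 TPM on day 11 (log2 fold change −2.59, SE 0.19, adjusted p 1.55e-05). SALL4, a zinc finger factor also used in early heart and limb formation, kept 34.8%, at 424, 383 and 389.7 TPM on day 4 and 142, 129.5 and 145 TPM on day 11 (log2 fold change −1.57, SE 0.14, adjusted p 5.18e-05). Their day 11 libraries agreed closely with each other and lay below all day 4 libraries. MYCN, a transcription factor of the MYC family, did not pass the test, at 122, 134 and 90.4 TPM on day 4 and 108, 85.3 and 103 TPM on day 11 (adjusted p 0.247, 95% interval of the log2 fold change −0.69 to 0.14). MYC itself stood at 20.9, 30.3 and 47.4 TPM on day 4 and 22.6, 23.1 and 30.5 TPM on day 11 (adjusted p 0.277, interval −1.07 to 0.25). For both MYC genes the libraries of the days overlapped. MYCN and MYC overlap other annotated genes in their exons.

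Of 28 further stem cell marker genes, 26 were lower on day 11 and their median log2 fold change was −4.44. The de novo DNA methyltransferase DNMT3B, among the most abundant of them on day 4, stood at 2251, 2307 and 2102 TPM on day 4 and 146, 85.7 and 110.5 TPM on day 11 (log2 fold change −4.33, SE 0.24, adjusted p 4.13e-06). It fell to 5.14% of its mean and was still above 80 TPM in every day 11 library. CNMD (chondromodulin) fell furthest within the list, from 1230.0 ± 137 to 3.88 ± 1.47 TPM (SD, n = 3; log2 fold change −8.36, SE 0.31, adjusted p 8.45e-07). TDGF1, the Nodal co-receptor CRIPTO, stood at 194, 546 and 707 TPM on day 4 and 3.16, 5.3 and 3.22 TPM on day 11 (log2 fold change −7.00, SE 0.58, adjusted p 1.04e-04). SFRP2, a secreted Wnt antagonist, stood at 157, 305 and 311 TPM on day 4 and 2.43, 3.22 and 2.28 TPM on day 11 (log2 fold change −6.66, SE 0.34, adjusted p 3.42e-06). L1TD1, an RNA-binding protein, kept 4.74% of its day 4 TPM, DPPA4, a chromatin protein, 5.51%, and TERF1, which binds telomere repeats, 4.15%. TERT, the catalytic subunit of telomerase, went from 23.5 ± 2.16 to 2.38 ± 0.463 TPM (log2 fold change −3.35, SE 0.21, adjusted p 6.38e-06). The 2 members that did not pass the test were ligands of the TGF-beta family. NODAL stood at 1.93, 5.06 and 2.87 TPM on day 4 and 6.85, 5.23 and 7.74 TPM on day 11 (adjusted p 0.0682). GDF3 stood at 15.7, 58 and 36.8 TPM on day 4 and 4.13, 33.6 and 2.19 TPM on day 11, with overlapping libraries (adjusted p 0.243). TDGF1, L1TD1, TERT and NODAL overlap other annotated genes in their exons.

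Cell surface genes that mark stem cells were lower on day 11 at 12 of 13 genes, with a median log2 fold change of −2.65, and 12 were still at 10 TPM or more in every day 11 library. PODXL, the sialomucin that carries the TRA-1-60 epitope, stood at 2837, 3729 and 3039 TPM on day 4 and 301, 272 and 560.0 TPM on day 11 (log2 fold change −3.12, SE 0.32, adjusted p 1.03e-04). CLDN6, a tight junction claudin, stood at 1891, 2265 and 2244 TPM on day 4 and 222, 497 and 191 TPM on day 11 (log2 fold change −2.87, SE 0.36, adjusted p 4.27e-04). CDH1, which encodes E-cadherin, kept 8.94% and ALPL, an alkaline phosphatase, 7.55% of the day 4 TPM. At the other end CD24, a glycoprotein anchored by glycosylphosphatidylinositol, kept 48.4%, at 3267, 2835 and 2967 TPM on day 4 and 1173, 1641 and 1579 TPM on day 11 (log2 fold change −1.09, SE 0.19, adjusted p 0.00177). The epithelial adhesion gene EPCAM kept 59.2%, at 329, 344 and 413 TPM on day 4 and 169, 273 and 200.4 TPM on day 11 (log2 fold change −0.81, SE 0.20, adjusted p 0.00873). With all 15 libraries in 1 fit 8 genes of the list were lower, and the edgeR adjusted p was 0.0677 for CD24 and 0.274 for EPCAM. The Wnt receptor gene FZD7 kept 49.1% and CDH3, which encodes P-cadherin, 56.1%. PROM1 (CD133) stood at 58.2, 84.1 and 64.3 TPM on day 4 and 59.7, 66.7 and 113 TPM on day 11, its libraries overlapped and it did not pass the test (adjusted p 0.629). Within day 11, plate 5 was the highest library for CLDN6, CDH1, EPCAM and FZD7, and plate 6 for PODXL. CLDN6, CDH1, ALPL, CDH3 and PROM1 overlap other annotated genes in their exons.

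Regulators shared by stem cells and fetal tissues were lower at 8, higher at 1 and not called at 6 of 15 genes, with a median log2 fold change of −0.65, and all 15 stood at 10 TPM or more in every day 11 library. Of the list 53.3% were lower and 6.7% higher, beside 23.8% and 23.1% of all genes tested. LIN28A, an RNA-binding protein that blocks the maturation of let-7 microRNAs, stood at 3325, 1987 and 2414 TPM on day 4 and 1219, 838 and 919 TPM on day 11 (log2 fold change −1.43, SE 0.24, adjusted p 0.00151). HMGA1, an architectural chromatin protein, stood at 2635, 2269.8 and 2612 TPM on day 4 and 1689, 1519 and 1194 TPM on day 11 (log2 fold change −0.83, SE 0.18, adjusted p 0.00493). Both passed the test and both stayed above 800 TPM in every day 11 library. TRIM71, a repressor of messenger RNAs and itself a let-7 target, kept 30.5% of its day 4 TPM, at 199 ± 19.6 TPM on day 11 (log2 fold change −1.76, SE 0.17, adjusted p 7.60e-05). LIN28B (means of 201 TPM on day 4 and 170.2 TPM on day 11), IGF2BP1 (203 and 168 TPM) and IGF2BP2 (129.8 and 156 TPM), all RNA-binding proteins of fetal cells, did not pass the test (adjusted p 0.342, 0.123 and 0.22). IGF2BP3 of the same family fell to 43.9% (log2 fold change −1.24, SE 0.14, adjusted p 1.49e-04). HMGA2, another let-7 target, was the gene called higher, at 31.6, 29.4 and 29.3 TPM on day 4 and 70.2, 46.9 and 54.3 TPM on day 11 (log2 fold change 0.87, SE 0.17, adjusted p 0.00305). It did not pass with all 15 libraries in 1 fit (adjusted p 0.0536). Among chromatin regulators, PHC1 and JARID2 of the Polycomb complexes kept 14.6% and 19.7%, DNMT1, which maintains DNA methylation, kept 58.6%. The Polycomb methyltransferase EZH2 stood at 43.9, 45.4 and 42 TPM on day 4 and 47.8, 33.6 and 38.2 TPM on day 11 (adjusted p 0.367). LIN28B, IGF2BP1, IGF2BP3, HMGA2, PHC1 and DNMT1 overlap other annotated genes in their exons.

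Over the 79 genes of these 5 lists (with the long noncoding RNAs below), 67 were lower on day 11, 1 was higher and 11 did not pass the test. The median gene kept 10.1% of its day 4 TPM, with medians of 9.41%, 10.7% and 7.29% in the libraries of plates 2, 5 and 6. Of the 79 genes, 30 kept under 5%, 9 more kept under 10%, 24 kept between 10% and 50%, and 16 kept 50% or more. A level of 10 TPM or more in every day 11 library was held by 38 genes, 28 of which were called lower, and 13 genes held 100 TPM or more. The summed TPM of the core factors was 719.9, 719 and 699 in the day 9 libraries, 367, 315 and 371 on day 11, and between 129 and 211 on day 20. Most of the day 11 sum came from SALL4, ZFP42 and MYCN, the last of which did not pass the test against day 4. POU5F1, SOX2, NANOG and PRDM14 gave little of it. LIN28A went further down to 60.3 ± 36 TPM and HMGA1 to 362 ± 68 TPM on day 20 (SD, n = 3, with 1 library at an RNA integrity score of 6.1).

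**Figure D2:**
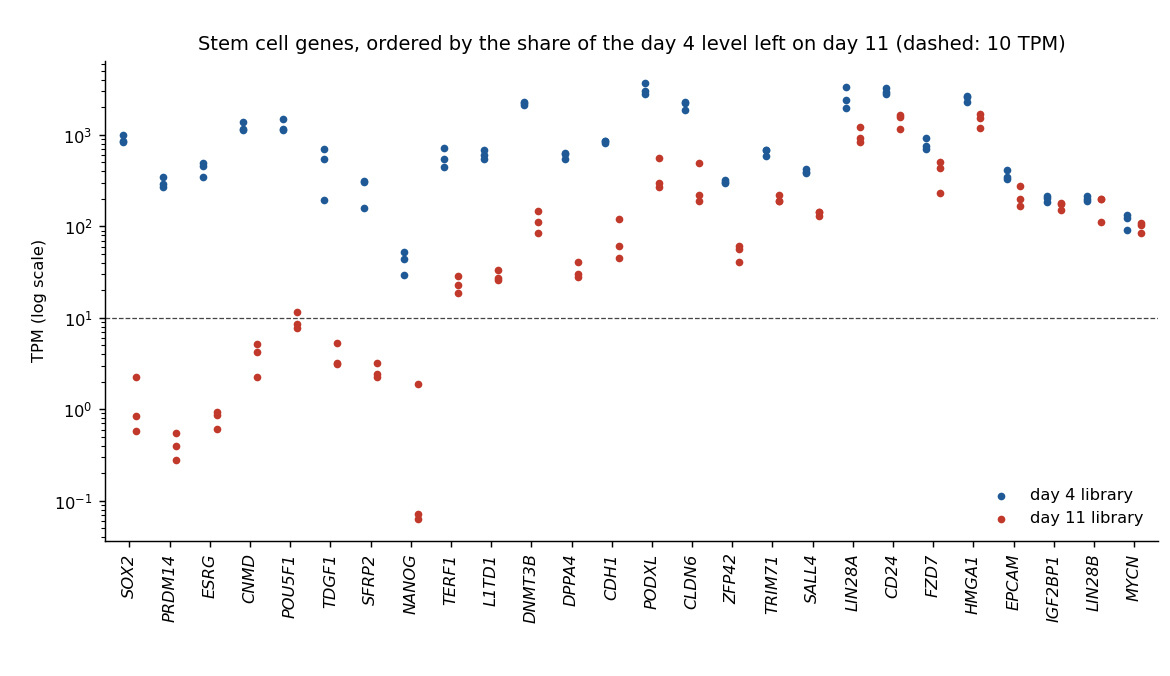
TPM on a log scale (y axis) of 26 stem cell genes in the 3 day 4 libraries (blue) and the 3 day 11 libraries (red), ordered from the smallest to the largest share of the day 4 level left; the dashed line marks 10 TPM. SOX2, PRDM14 and ESRG lay near the bottom on day 11, at 2.24 TPM or less, while LIN28A, CD24 and HMGA1 lay above 800 TPM and the points of LIN28B and MYCN overlapped between days.

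Long noncoding RNAs of stem cells were lower on day 11 at all 10 genes listed, with a median log2 fold change of −6.53. ESRG stood at 487, 350.0 and 462 TPM on day 4 and 0.923, 0.859 and 0.61 TPM on day 11 (log2 fold change −9.13, SE 0.26, adjusted p 3.67e-07). LINC00678 stood at 348, 343 and 454 TPM on day 4 and 0.293, 0.992 and 1.78 TPM on day 11 (log2 fold change −8.54, SE 0.40, adjusted p 2.77e-06), so that under 1% of either remained. LNCPRESS2 kept 0.202% of its day 4 TPM and LINC-ROR kept 3 reads in all. TUNAR and DANCR, which are also made in other tissues, kept 28.7% and 49.4%. MIR302CHG, the host transcript of the miR-302/367 cluster, stood at 58.2, 64.8 and 50.2 TPM on day 4 and 1.38, 1.04 and 2.36 TPM on day 11 (log2 fold change −5.18, SE 0.35, adjusted p 1.11e-05). The cluster encodes characteristic microRNAs of human stem cells, and its transcript lies at chr4:112646476-112650051 on the minus strand (GRCh38). DANCR and MIR302CHG overlap other annotated genes in their exons.

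The mature 3p microRNAs within this transcript are shown because their seeds define which target sites the cluster recognises. The sequences are from RefSeq (GRCh38.p14, chromosome 4, minus strand), 5′ to 3′, with the seed, bases 2 to 8, in capitals.
hsa-miR-302a-3p: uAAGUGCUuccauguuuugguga
hsa-miR-302b-3p: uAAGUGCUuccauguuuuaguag
hsa-miR-302c-3p: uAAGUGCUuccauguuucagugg
hsa-miR-302d-3p: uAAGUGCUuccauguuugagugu
hsa-miR-367-3p: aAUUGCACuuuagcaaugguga
The 4 miR-302 members share the seed AAGUGCU, and miR-367-3p has the separate seed AUUGCAC. Only the host transcript was measured, and no level of a mature microRNA is given.

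Proliferation genes were lower on day 11 but remained expressed. Of 60 genes of DNA replication and mitosis, 47 were lower, 1 was higher and 12 did not pass the test. When all 15 libraries of the series were fitted together, 33 were lower and none was higher. None fell below 10% of its day 4 TPM, 19 kept between 10% and 50% and 41 kept 50% or more. The median gene kept 56.5% of its day 4 TPM, with medians of 66.4%, 45.1% and 58.6% on plates 2, 5 and 6. In every day 11 library 55 of the 60 genes stood at 10 TPM or more. The least reduced library was that of plate 2 and the most reduced that of plate 5, the library with the highest sarcomere gene sum. On day 20 the summed TPM of the mitosis genes spread from 996 to 2840.2 between libraries, the latter in the library with an RNA integrity score of 6.1, beside 3226, 2378 and 2644 on day 11.

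Among 30 DNA replication genes, 22 were lower and the median log2 fold change was −0.99. The licensing factor ORC1, part of the complex that marks replication origins, fell most, at 108, 99 and 113 TPM on day 4 and 35.5, 21.2 and 31.6 TPM on day 11 (log2 fold change −1.91, SE 0.20, adjusted p 1.15e-04). The helicase subunit MCM5 stood at 159.9, 156 and 148 TPM on day 4 and 63.8, 38.4 and 52.9 TPM on day 11 (log2 fold change −1.63, SE 0.20, adjusted p 2.28e-04). Its partner MCM3 stood at 401, 403 and 358 TPM on day 4 and 189, 143 and 182 TPM on day 11 (log2 fold change −1.23, SE 0.16, adjusted p 3.83e-04). The subunits MCM2, MCM4, MCM6 and MCM7 were lower as well, and their remaining shares lay between 41.7% and 62.7%. PCNA, the sliding clamp of the polymerases, stood at 359, 463 and 333 TPM on day 4 and 207, 115 and 232 TPM on day 11 (log2 fold change −1.11, SE 0.27, adjusted p 0.0103). For each of these genes the lowest day 4 library exceeded the highest day 11 library, and plate 5 was the lowest of day 11. CCNE2, a cyclin that opens DNA synthesis, was the only member that rose, at 1.98, 3.59 and 2.25 TPM on day 4 and 5.12, 7.05 and 4.83 TPM on day 11 (log2 fold change 1.07, SE 0.30, adjusted p 0.0179; adjusted p 0.11 with all 15 libraries in 1 fit). It did not pass without the day 4 library of plate 1 (log2 fold change 0.89) or of plate 5 (0.95). CCNE1 stood at 48.7, 59.6 and 42.4 TPM on day 4 and 79.8, 24 and 50.6 TPM on day 11, with overlapping libraries (adjusted p 0.98). TYMS, which makes thymidylate, stood at 20.8, 25.2 and 18.4 TPM on day 4 and 42.7, 23.1 and 37.3 TPM on day 11 (adjusted p 0.0678). MCM7, CCNE2 and TYMS overlap other annotated genes in their exons.

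Among 30 mitosis genes, 25 were lower, with a median log2 fold change of −0.77, and all 30 stood at 10 TPM or more in every day 11 library. With all 15 libraries in 1 fit 16 were lower. TOP2A, the topoisomerase that untangles chromosomes, stood at 473, 533 and 488 TPM on day 4 and 350.2, 279 and 273 TPM on day 11 (log2 fold change −0.78, SE 0.16, adjusted p 0.00391). The proliferation marker MKI67 stood at 70.3, 130.4 and 107 TPM on day 4 and 56.8, 48.9 and 48.3 TPM on day 11 (log2 fold change −1.05, SE 0.22, adjusted p 0.00431). CCNB1, the cyclin that drives entry into mitosis, kept 49.6% (log2 fold change −1.06, SE 0.16, adjusted p 8.76e-04). CDC20, which activates the complex that ends mitosis, kept 48.3% (log2 fold change −1.10, SE 0.15, adjusted p 3.88e-04). The spindle checkpoint kinases BUB1 and BUB1B fell to 35.1% and 33.1% and the spindle protein HMMR to 29.9%, among the largest decreases of the list. CDK1, the partner of CCNB1, stood at 112, 128 and 131 TPM on day 4 and 114, 77.4 and 89.8 TPM on day 11. BIRC5 (survivin) stood at 101, 107 and 99.8 TPM on day 4 and 105, 64.2 and 92.8 TPM on day 11. CENPA, the histone of centromeres, stood at 31.4, 31.5 and 32.3 TPM on day 4 and 48.1, 23.1 and 39.2 TPM on day 11. The libraries of the days overlapped for these 3 genes and none passed the test (adjusted p 0.0535, 0.254 and 0.624). BUB1B, HMMR and CENPA overlap other annotated genes in their exons.

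**Figure D3:**
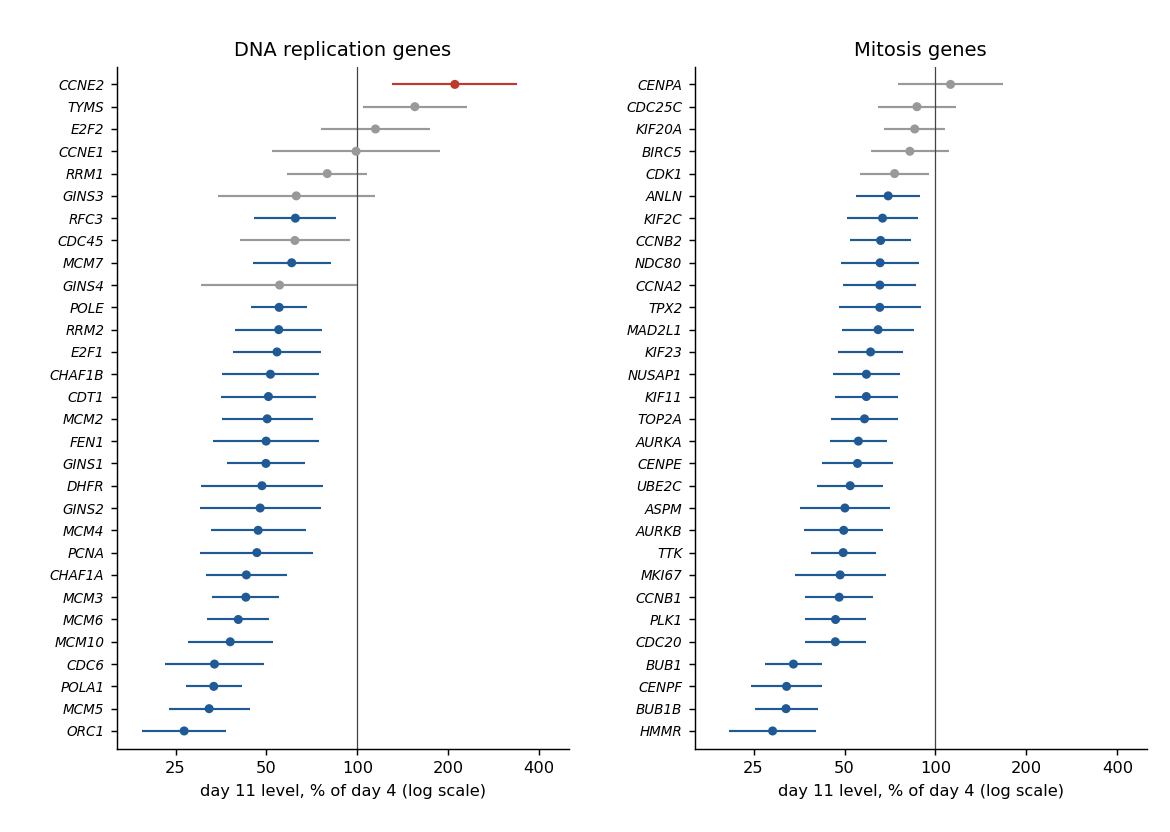
Fitted day 11 level as a percentage of day 4 (x axis, log scale) for 30 DNA replication genes (left) and 30 mitosis genes (right), with 95% intervals of the edgeR fit (n = 3 libraries per day); blue was lower, red higher, grey did not pass an adjusted p of 0.05. Most intervals lie between 25% and 100%, which shows lowered but not lost expression, and CCNE2 is the only gene that was higher at the threshold.

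Genes that set the length of the first gap phase moved mostly the other way. Of 14 tested cyclin D, CDK, CDK inhibitor and retinoblastoma family genes, 8 were higher and 1 was lower on day 11. Their median log2 fold change was 0.58, and 5 genes did not pass the test. Of the list 57.1% were higher and 7.1% lower, beside 23.1% and 23.8% of all genes tested. With all 15 libraries in 1 fit 6 members were higher and 1 lower. CDK6, a cyclin D-dependent kinase, stood at 8.37, 8.41 and 13.6 TPM on day 4 and 134, 72.5 and 199.8 TPM on day 11 (log2 fold change 3.70, SE 0.42, adjusted p 3.48e-04). CDKN2B, the inhibitor p15 of that kinase, stood at 0.0595, 0.207 and 0.28 TPM on day 4 and 7.52, 8.07 and 7.6 TPM on day 11 (log2 fold change 5.39, SE 0.43, adjusted p 2.67e-05). CDKN1B, the inhibitor p27, stood at 75.1, 50.2 and 55.8 TPM on day 4 and 134, 121 and 106 TPM on day 11 (log2 fold change 0.94, SE 0.18, adjusted p 0.0029). CDKN1A, the inhibitor p21, stood at 9.23, 17.7 and 12.3 TPM on day 4 and 24.6, 31.6 and 51.5 TPM on day 11 (log2 fold change 1.42, SE 0.34, adjusted p 0.00941; adjusted p 0.0837 with all 15 libraries in 1 fit). The cyclin CCND2 stood at 103, 90.1 and 105 TPM on day 4 and 260.2, 238 and 148 TPM on day 11 (log2 fold change 1.06 ± 0.21, SE). RB1, the retinoblastoma gene, stood at 20.2, 21.3 and 21.5 TPM on day 4 and 37.9, 31.2 and 39.6 TPM on day 11 (log2 fold change 0.74 ± 0.15, SE), and its relative RBL1 was lower (−0.97 ± 0.17). The days did not overlap for any of these 7 genes. CDK6, CDKN1A, CCND2 and RBL1 overlap other annotated genes in their exons.

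Short sequence words in the promoters of these genes were counted. The 250 bases before the gene start (RefSeq, GRCh38.p14) were searched on both strands for 7 motifs in 13475 promoters of tested genes. Some forms of the serum response element contain CCAAT or TATAAA. The E2F words TTTGGCGC, TTTCCCGC and TTTCGCGC, recognised by the E2F factors that RB1 restrains, stood in 12 of 25 DNA replication promoters (48.0%) and in 3.49% of all promoters. The cell cycle homology region (TTTGAA) stood in 13 of 25 mitosis promoters (52.0%) and in 8.88% of all promoters. The word CCAAT stood in 76.0% of mitosis and 64.0% of replication promoters, beside 34.3% of all. Over all 3419 promoters of genes lower on day 11 the shares were 4.07% for E2F and 9.04% for TTTGAA, close to those of all promoters. A match in these letters is a description and not evidence of binding.

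The 150 bases before the start are shown for 2 members of each list, with the motif in capitals, 5′ to 3′ on the gene's strand. They had the highest day 11 TPM among members with a match within these 150 bases. PCNA lies at chr20:5126623-5126772 on the minus strand with the E2F word 59 bases before the start, and MCM7 at chr7:100101398-100101547 on the minus strand with the word 9 bases before it.
PCNA: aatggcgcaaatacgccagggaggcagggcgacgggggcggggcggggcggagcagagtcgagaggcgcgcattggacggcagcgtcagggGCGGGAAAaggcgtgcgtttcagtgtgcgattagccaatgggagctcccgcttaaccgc
MCM7: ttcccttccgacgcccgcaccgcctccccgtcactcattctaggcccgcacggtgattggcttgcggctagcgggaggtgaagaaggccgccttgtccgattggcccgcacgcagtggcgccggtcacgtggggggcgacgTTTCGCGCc
CDC20 lies at chr1:43358831-43358980 on the plus strand with TTTGAA 65 bases before the start, and CCNB2 at chr15:59104996-59105145 on the plus strand with TTTGAA 29 bases before it.
CDC20: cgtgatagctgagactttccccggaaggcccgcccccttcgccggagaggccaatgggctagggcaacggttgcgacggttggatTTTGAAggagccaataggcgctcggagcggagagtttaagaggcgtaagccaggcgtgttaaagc
CCNB2: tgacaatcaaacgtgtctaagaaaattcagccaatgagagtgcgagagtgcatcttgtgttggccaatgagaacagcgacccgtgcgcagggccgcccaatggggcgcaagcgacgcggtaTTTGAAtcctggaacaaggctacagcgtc
On day 11 CDC20 kept 48.3%, CCNB2 68.2%, PCNA 47.9% and MCM7 62.7% of the day 4 TPM.

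Cardiac transcription factors were higher on day 11 at 22 of 23 genes, with a median log2 fold change of 7.87. GATA4, a zinc finger factor of heart mesoderm, stood at 0.245, 0.0756 and 0.182 TPM on day 4 and 223, 184 and 132 TPM on day 11 (log2 fold change 9.91, SE 0.36, adjusted p 7.72e-07). TBX20, a T-box factor of the working muscle, stood at 1.03, 0.537 and 0.692 TPM on day 4 and 249.8, 388 and 177 TPM on day 11 (log2 fold change 8.38, SE 0.41, adjusted p 3.42e-06). NKX2-5, the homeobox factor used to mark cardiac commitment, stood at 0.288, 0.24 and 0.155 TPM on day 4 and 204, 459 and 100.2 TPM on day 11 (log2 fold change 9.97, SE 0.82, adjusted p 1.10e-04). All 3 were below 2 TPM in every day 4 library. TBX5, which patterns the first heart field, was counted on 3 reads in all on day 4 and stood at 72.1, 72.4 and 28.4 TPM on day 11. HAND1, a factor of the early heart tube and of extraembryonic mesoderm, was the most abundant, at 0.764, 0.773 and 1.21 TPM on day 4 and 589, 205 and 999.8 TPM on day 11 (log2 fold change 9.31, SE 0.79, adjusted p 1.26e-04). ISL1, a factor of second heart field progenitors, remained at 35.1, 33.5 and 35 TPM on day 11 from 0.712, 0.815 and 0.731 TPM (log2 fold change 5.46, SE 0.21, adjusted p 8.59e-07). MYOCD, the coactivator of serum response factor, stood at 86.1, 214 and 46.4 TPM from 0.163, 0.511 and 0.365 TPM (log2 fold change 8.36, SE 0.79, adjusted p 1.99e-04). HEY2, a Notch-responsive repressor, was the exception, at 11.6, 14.1 and 23.8 TPM on day 4 and 16.3, 21.8 and 9.09 TPM on day 11 (adjusted p 0.796). Plate 5 was highest for NKX2-5, TBX20 and MYOCD and lowest for HAND1. Without plate 5 the log2 fold changes of NKX2-5 and MYOCD were 9.26 and 7.60, and without plate 6 of day 11 that of HAND1 was 8.68. TBX5 and MYOCD overlap other annotated genes in their exons.

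Of 26 tested sarcomere genes, 24 were higher, with a median log2 fold change of 7.14, and 23 stood at 10 TPM or more in every day 11 library. The atrial-type heavy chain MYH6 stood at 3.83, 3.59 and 1.37 TPM on day 4 and 2745, 10863 and 1598 TPM on day 11 (log2 fold change 10.68, SE 1.09, adjusted p 2.81e-04). By mean TPM MYH6 was the most abundant protein-coding gene on day 11, but that mean rested largely on plate 5 (10863 TPM). The rank did not hold in every library. Where MYH6 was lowest on day 11 (1598 TPM), the sarcomere genes ACTC1 (1758 TPM) and MYL7 (1622 TPM) stood above it. The light chain MYL7 stood at 4.31, 2.99 and 2.45 TPM on day 4 and 2348, 7820.0 and 1622 TPM on day 11 (log2 fold change 10.15, SE 0.85, adjusted p 1.21e-04). The fetal light chain MYL4 stood at 1.4, 1.03 and 0.892 TPM on day 4 and 1136, 2288 and 1473 TPM on day 11 (log2 fold change 10.43, SE 0.40, adjusted p 8.59e-07). Cardiac actin ACTC1 stood at 9.06, 6.55 and 8.81 TPM on day 4 and 1953, 3924 and 1758 TPM on day 11 (log2 fold change 8.23, SE 0.42, adjusted p 3.35e-06). Every day 11 library exceeded every day 4 library at least 100-fold for these 4 genes. TNNT2, the cardiac troponin T used to sort cardiomyocytes, stood at 1.23, 1.41 and 1.76 TPM on day 4 and 332, 956 and 244 TPM on day 11 (log2 fold change 8.39, SE 0.67, adjusted p 9.27e-05). The myosin chaperone UNC45B stood at 0.149, 0.207 and 0.114 TPM on day 4 and 207, 462 and 129.7 TPM on day 11 (log2 fold change 10.65, SE 0.69, adjusted p 3.59e-05). Without plate 5, the highest for these genes, the log2 fold changes were 9.49 for MYH6, 9.19 for MYL7, 7.59 for TNNT2 and 10.02 for UNC45B. The ventricular light chain MYL2 was under 0.2 TPM in every library of both days and was not tested. MYL3, another light chain of the ventricle, stood at 73.6, 413 and 115 TPM on day 11. MYH7, the slow heavy chain, stood at 9.3, 26.2 and 19.5 TPM on day 11. TNNI3, the adult troponin I, stood at 20.9, 13.2 and 21.2 TPM on day 4 and 20.6, 23.3 and 28 TPM on day 11 (adjusted p 0.299) beside 295 TPM of the fetal TNNI1. Reads of MYH6 and MYH7, which are close copies, may have been split between them, as may those of ACTC1 and other actins. ACTC1, TNNT2, UNC45B, MYH7, TNNI3 and TNNI1 overlap other annotated genes in their exons.

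The serum response element, the binding site of serum response factor that was early described in muscle actin promoters, was found in 4 of 17 sarcomere promoters (23.5%) and in 1.06% of all promoters. The GATA word AGATAA stood in 5 of the 17 (29.4%) and in 5.26% of all. The TATA word TATAAA (17.6% against 6.14%) and the OCT4 word ATGCAAAT (none against 1.42%) were searched as well. The promoters of the 2 most abundant members with the element in the 150 bases before the start are shown, with the element in capitals. MYL7 lies at chr7:44141333-44141482 on the minus strand with the element 61 bases before the start, and ACTC1 at chr15:34795550-34795699 on the minus strand with the element 109 bases before it.
MYL7: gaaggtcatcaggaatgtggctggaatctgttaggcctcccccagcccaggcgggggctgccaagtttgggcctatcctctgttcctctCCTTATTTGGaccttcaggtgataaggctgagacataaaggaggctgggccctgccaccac
ACTC1: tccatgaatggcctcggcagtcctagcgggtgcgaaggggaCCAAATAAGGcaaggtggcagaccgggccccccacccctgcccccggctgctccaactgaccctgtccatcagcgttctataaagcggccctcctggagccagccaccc
Both genes rose more than 100-fold in every library of day 11, and SRF, the factor that reads the element, stood at 51.7, 49.1 and 47.4 TPM on day 4 and 74.9, 99.3 and 57.7 TPM on day 11 (log2 fold change 0.59, SE 0.19, adjusted p 0.0305). SRF did not pass without any 1 of the day 4 libraries or without plate 2 of day 11, with log2 fold changes between 0.53 and 0.62, nor with all 15 libraries in 1 fit or upper-quartile scaling (adjusted p 0.0592 and 0.0578).

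Genes of excitation and calcium handling changed unevenly, with 11 of 21 higher, 2 lower and a median log2 fold change of 1.75. Of the list 52.4% were higher and 9.5% lower, beside 23.1% and 23.8% of all genes tested. PLN, the brake of the sarcoplasmic calcium pump, stood at 1.15, 0.336 and 0.567 TPM on day 4 and 182, 289 and 174 TPM on day 11 (log2 fold change 8.15, SE 0.41, adjusted p 3.91e-06). The pump ATP2A2 itself stood at 105, 159.9 and 130.2 TPM on day 4 and 136, 373 and 133 TPM on day 11 and did not pass the test (adjusted p 0.238). The ryanodine receptor RYR2 stood at 8.78, 10.4 and 12.5 TPM on day 4 and 52.2, 115 and 41.1 TPM on day 11 (log2 fold change 2.66, SE 0.39, adjusted p 0.00115). The potassium channel subunit KCNJ5 stood at 0.0395, 0.0824 and 0.106 TPM on day 4 and 13.8, 64 and 20.6 TPM on day 11 (log2 fold change 8.70, SE 0.88, adjusted p 2.67e-04). JPH2, which ties the calcium store to the surface membrane, stood at 1.46, 1.3 and 0.9 TPM on day 4 and 75.7, 160.4 and 47.7 TPM on day 11 (log2 fold change 6.20, SE 0.54, adjusted p 1.24e-04). Without plate 5 the log2 fold changes were 7.80 for KCNJ5 and 5.61 for JPH2, and without plate 1 of day 4 that of PLN was 8.79. The pacemaker channel HCN4 stood at 13.6, 16.4 and 24.9 TPM on day 4 and 28.6, 85.3 and 17.1 TPM on day 11 (adjusted p 0.13). GJA1, which encodes connexin 43 of the channels between cells, stood at 4150.1, 6256 and 5645 TPM on day 4 and 369, 268 and 614 TPM on day 11 (log2 fold change −3.72, SE 0.35, adjusted p 7.46e-05). The RNA of GJA1 was far more abundant in the stem cells, where it was among the 10 genes of highest TPM.

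Secreted products of the embryonic heart were among the largest increases, and all 7 on the list were higher. NPPB, a natriuretic peptide, stood at 0, 0.484 and 0.701 TPM on day 4 and 80.3, 744 and 49.7 TPM on day 11 (log2 fold change 9.50, SE 1.65, adjusted p 0.00318). NPPA, its atrial relative, stood at 0.108, 0.899 and 0.145 TPM on day 4 and 18.6, 575 and 17.3 TPM on day 11 (log2 fold change 9.03, SE 2.09, adjusted p 0.0109). Plate 5 held most of both. Without it the log2 fold changes were 7.37 for NPPB and 5.56 for NPPA. Without a filter on low counts NPPA did not pass (adjusted p 0.0793). CRHBP, a binding protein of corticotropin-releasing hormone, stood at 0.302, 0.419 and 0.463 TPM on day 4 and 192, 510.2 and 69.5 TPM on day 11 (log2 fold change 9.29, SE 0.96, adjusted p 3.05e-04). CGA, the shared alpha chain of pituitary and placental hormones, went from 1 read in all to 33.1, 147 and 47.5 TPM, and the cardiac growth factor BMP10 from 1 read to 39.5, 41.2 and 45.4 TPM, the last with little spread between plates. All 11 genes of the signature that the study proposed for day 11 cells were higher than on day 4, with log2 fold changes between 5.00 and 10.68. The study picked that signature on these day 11 libraries, so its count is not independent evidence. ANKRD1, a stretch-responsive protein of the sarcomere, stood at 1.16, 0.933 and 0.491 TPM on day 4 and 822, 3114 and 487 TPM on day 11 (log2 fold change 10.63, SE 1.02, adjusted p 2.14e-04). Without plate 5 the log2 fold changes were 8.34 for CRHBP, 4.07 for SLC8A1 and 9.48 for ANKRD1. The matrix gene CCDC80 stood at 4.1, 7.51 and 6.13 TPM on day 4 and 197, 309.6 and 152 TPM on day 11 (log2 fold change 5.16, SE 0.35, adjusted p 1.54e-05). NPPA and SLC8A1 overlap other annotated genes in their exons.

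Of 11 tested primitive streak and early cardiac mesoderm genes, 8 were higher than on day 4 (72.7%, beside 23.1% of all genes tested). With all 15 libraries in 1 fit 6 were higher. PDGFRA, a receptor of cardiac mesoderm, stood at 2.31, 3.4 and 2.48 TPM on day 4 and 209, 282 and 161 TPM on day 11 (log2 fold change 6.26, SE 0.28, adjusted p 1.64e-06). APLNR, the apelin receptor, stood at 0.355, 0.853 and 0.694 TPM on day 4 and 137, 279.7 and 159 TPM on day 11 (log2 fold change 8.22, SE 0.43, adjusted p 6.01e-06). MESP1, the factor that precedes the heart field, stood at 0.561, 0.283 and 0.547 TPM on day 4 and 2.37, 4.31 and 1.01 TPM on day 11 (log2 fold change 2.35, SE 0.57, adjusted p 0.00841) and was low on both days. KDR, a receptor of vascular endothelial growth factor, was already on in stem cells, at 113, 231 and 313 TPM on day 4 and 249.5, 334 and 532 TPM on day 11 (adjusted p 0.19). The streak factors TBXT and GSC stayed under 1 TPM in every library of both days and were not tested. EVX1, a posterior streak factor, had no read in the day 4 libraries and 51, 82 and 86 reads on day 11. PDGFRA and EVX1 overlap other annotated genes in their exons.

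Ligands and targets of BMP signalling, which instructs cardiac mesoderm, were higher at 14 of 15 genes, with a median log2 fold change of 4.06. Among ligands BMP4 stood at 5.02, 8.06 and 10.2 TPM on day 4 and 169, 110.4 and 275 TPM on day 11 (log2 fold change 4.54, SE 0.43, adjusted p 1.67e-04). BMP2 stood at 15, 26.1 and 15.9 TPM on day 4 and 308, 496 and 186 TPM on day 11 (log2 fold change 4.06, SE 0.41, adjusted p 2.03e-04). BMP5 stood at 0.367, 0.255 and 0.451 TPM on day 4 and 185, 173 and 124 TPM on day 11 (log2 fold change 8.73, SE 0.27, adjusted p 5.96e-07). Among targets the inhibitory SMAD6 stood at 6.95, 7.45 and 6.63 TPM on day 4 and 150.4, 186 and 81 TPM on day 11 (log2 fold change 4.25, SE 0.30, adjusted p 1.67e-05). ID3, an antagonist of basic helix-loop-helix factors, stood at 68.9, 113 and 77.6 TPM on day 4 and 700.1, 630.3 and 507 TPM on day 11 (log2 fold change 2.77, SE 0.22, adjusted p 2.54e-05). The decoy receptor BAMBI stood at 30.2, 55.6 and 49.4 TPM on day 4 and 829.9, 1287 and 802 TPM on day 11 (log2 fold change 4.38, SE 0.30, adjusted p 1.32e-05). No libraries of the days overlapped for these 6 genes. NOG, a secreted BMP antagonist, was higher too (4.54 ± 0.64, SE; 3.94 without plate 5 of day 11), and BMP7 did not pass the test (adjusted p 0.0777). BMP4 overlaps another annotated gene in its exons.

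Of 19 Wnt genes, 12 were higher (63.2%) and 3 were lower (15.8%), beside 23.1% and 23.8% of all genes tested. Targets of canonical signalling moved in different directions. AXIN2, a feedback inhibitor that reads canonical Wnt activity, was lower, at 30.4, 30.2 and 31.1 TPM on day 4 and 15.3, 14.3 and 13.1 TPM on day 11 (log2 fold change −1.16, SE 0.14, adjusted p 1.98e-04). The target factor LEF1 stood at 1.15, 0.814 and 0.605 TPM on day 4 and 36.1, 21.2 and 59.4 TPM on day 11 (log2 fold change 5.44, SE 0.48, adjusted p 1.03e-04). SP5, another target factor, stood at 0.821, 0.733 and 0.708 TPM on day 4 and 27.2, 45.7 and 21.1 TPM on day 11 (log2 fold change 5.29, SE 0.37, adjusted p 1.24e-05). Ligands of the noncanonical branch rose. WNT5A stood at 3.51, 4.19 and 4.18 TPM on day 4 and 71.4, 129.6 and 97.7 TPM on day 11 (log2 fold change 4.60, SE 0.25, adjusted p 3.42e-06). WNT11 stood at 1.26, 1.47 and 1.62 TPM on day 4 and 65.3, 74.8 and 56.7 TPM on day 11 (log2 fold change 5.45, SE 0.21, adjusted p 8.58e-07). WNT2, a ligand of the cardiac inflow region, was counted on 1 read in all on day 4 and stood at 23, 51.2 and 55.9 TPM on day 11. Secreted antagonists split: SFRP5 (2.72 ± 0.38, SE) and DKK1 (4.76 ± 0.50) were higher, and SFRP1 (−1.87 ± 0.38) and WIF1 (−3.22 ± 0.35) were lower. AXIN2, LEF1, WNT11, WNT2 and DKK1 overlap other annotated genes in their exons.

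Genes of other cell types of the forming heart and gut were also higher on day 11. Of 20 tested mesenchymal and matrix genes 18 were higher, with a median log2 fold change of 2.88 and summed TPM of 1315, 1540.3 and 1770.2 on day 4 and 7448, 4931 and 12598 on day 11. With all 15 libraries in 1 fit 14 were higher. COL3A1, a fibrillar collagen, stood at 1.24, 3.03 and 0.69 TPM on day 4 and 1816, 423 and 3745 TPM on day 11 (log2 fold change 10.21, SE 1.17, adjusted p 4.79e-04). LUM, a collagen-binding proteoglycan, stood at 0.442, 0.335 and 0.377 TPM on day 4 and 345, 52.8 and 1569 TPM on day 11 (log2 fold change 10.67, SE 1.59, adjusted p 0.00159). Without plate 6 of day 11 their log2 fold changes were 9.34 and 8.89. ACTA2, the smooth muscle actin also used by early heart muscle, stood at 1.16, 2 and 1.12 TPM on day 4 and 269, 509.9 and 417 TPM on day 11 (log2 fold change 8.09, SE 0.37, adjusted p 2.55e-06). The mesenchymal factor TWIST1 stood at 0.475, 0.33 and 0.478 TPM on day 4 and 25.3, 17.3 and 21.2 TPM on day 11 (log2 fold change 5.54, SE 0.32, adjusted p 4.67e-06). COL1A2 stood at 171, 154 and 223 TPM on day 4 and 577, 217 and 1269 TPM on day 11, with overlapping libraries (log2 fold change 1.88, SE 0.60, adjusted p 0.0372). It did not pass without any 1 of the 6 libraries other than plate 5 of day 11, with log2 fold changes between 1.04 and 2.02, nor with all 15 libraries in 1 fit or no filter on low counts (adjusted p 0.123 and 0.169). Of 9 tested epicardial genes 6 rose (66.7%) and 2 fell (22.2%), beside 23.1% and 23.8% of all genes tested. The epicardial factor WT1 stood at 0, 0.0408 and 0.118 TPM on day 4 and 42.8, 2.01 and 24.3 TPM on day 11 (log2 fold change 8.72, SE 1.48, adjusted p 0.00288). TBX18, another such factor, stood at 0.0143, 0.0396 and 0.0191 TPM on day 4 and 10.3, 1.5 and 5.87 TPM on day 11 (log2 fold change 7.80, SE 0.95, adjusted p 5.02e-04). Both were lowest on plate 5, and without plate 2 of day 11 their log2 fold changes were 7.95 and 7.16. The part of these cells in the cardiac gene changes was not tested. COL3A1, ACTA2, TWIST1 and WT1 overlap other annotated genes in their exons.

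Endoderm and liver-type genes were higher at 13 of 15 tested members, with a median log2 fold change of 7.15, and their summed TPM was 60.4, 54.6 and 45.1 on day 4 and 2484, 1485 and 3679 on day 11. FOXA2, the pioneer factor of endoderm, stood at 0.0464, 0.258 and 0 TPM on day 4 and 50.7, 83.5 and 57.2 TPM on day 11 (log2 fold change 9.23, SE 0.54, adjusted p 7.79e-06). HNF4A, a factor of liver and gut, stood at 0, 0.0918 and 0.0887 TPM on day 4 and 33.6, 14.2 and 59.9 TPM on day 11 (log2 fold change 9.26, SE 0.90, adjusted p 2.26e-04). The apolipoprotein APOA2 stood at 0.895, 0.888 and 0.343 TPM on day 4 and 650.1, 311 and 741 TPM on day 11 (log2 fold change 9.53, SE 0.52, adjusted p 9.31e-06). TTR, a thyroid hormone carrier, stood at 0.389, 0.541 and 0.0746 TPM on day 4 and 303, 414 and 154 TPM on day 11 (log2 fold change 9.65, SE 0.59, adjusted p 2.21e-05), and alpha-fetoprotein (AFP) at 2.37, 4.07 and 1.74 TPM on day 4 and 231, 35.8 and 581 TPM on day 11 (log2 fold change 6.67, SE 1.10, adjusted p 0.00252). Without plate 6 of day 11 the log2 fold changes were 8.64 for HNF4A and 5.54 for AFP, and without plate 2 of day 4 that of FOXA2 was 10.80. ALB, the defining gene of mature liver, stood at 0.0715, 0.0497 and 0.096 TPM on day 4 and 4.54, 0.228 and 9.98 TPM on day 11 and was not tested, since it was too low in most of these libraries. SOX17, a factor of endoderm and of some endothelium, rose from 2 reads in all to 5.97, 11.2 and 5.32 TPM. The list sum rose further to 24829.9 and 29064 in 2 of the day 20 libraries and stood at 996 in the other. That library had an RNA integrity score of 6.1, beside 8.8 or more in the others of the series, and counts in 48230 genes, the most of the 15. HNF4A overlaps another annotated gene in its exons.

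Endothelial genes gave smaller levels. Of 15 tested, 9 were higher (60.0%) and 2 lower (13.3%) on day 11, beside 23.1% and 23.8% of all genes tested. With all 15 libraries in 1 fit 6 were higher and 1 lower. Summed TPM was 233, 334 and 319 on day 4 and 273, 571 and 198 on day 11, which overlapped. CDH5, which encodes the endothelial cadherin, stood at 0.0607, 0.253 and 0.163 TPM on day 4 and 9.65, 52.5 and 1.44 TPM on day 11 (log2 fold change 7.03, SE 1.49, adjusted p 0.00759). PLVAP, a protein of vessel fenestrae, stood at 0.419, 0.583 and 0.211 TPM on day 4 and 16, 107 and 2.84 TPM on day 11 (log2 fold change 6.60, SE 1.48, adjusted p 0.00958). Plate 5 was the highest library for both. Without it their log2 fold changes were 5.13 and 4.47, and without a filter on low counts neither passed (adjusted p 0.062 and 0.0728). VWF, the clotting factor of mature endothelium, stood at 5.35, 1.62 and 0.952 TPM on day 4 and 3.84, 13.4 and 0.63 TPM on day 11 (adjusted p 0.432). The receptor FLT1 fell (−1.33 ± 0.26, SE).

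**Figure D4:**
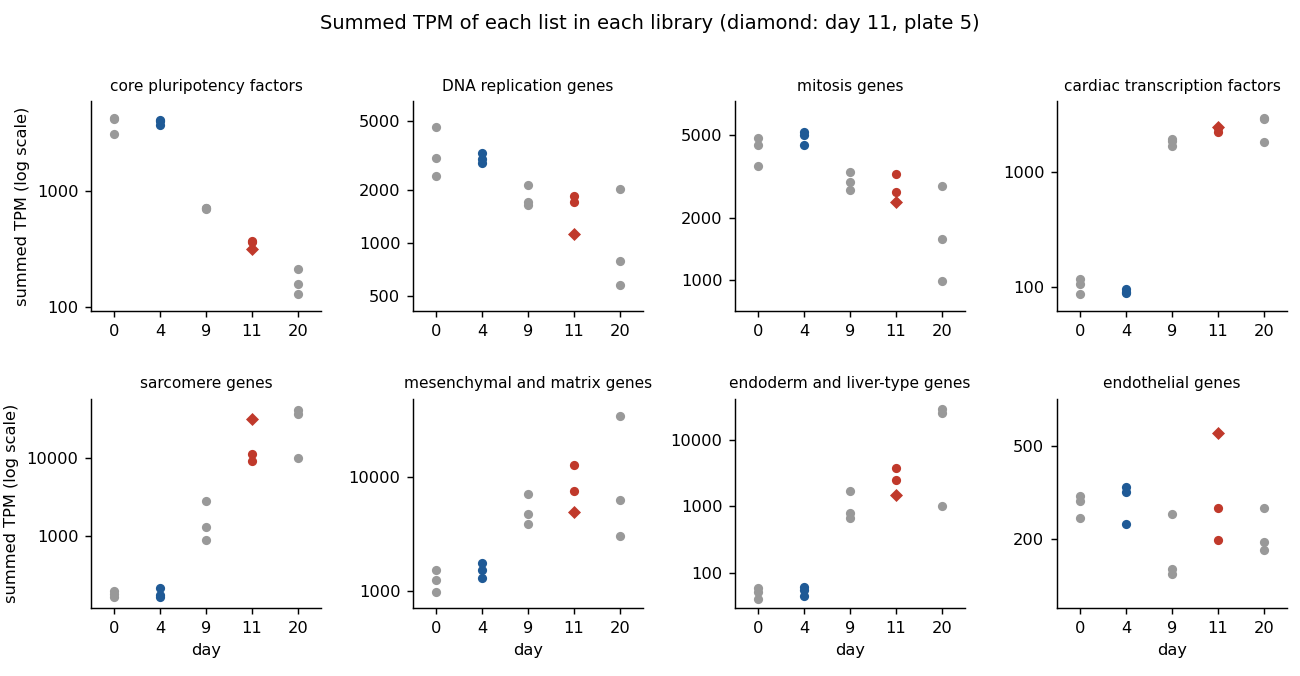
Summed TPM (y axes, log scale) of 8 gene lists in each of the 15 libraries by day (x axes); blue marks day 4, red day 11 and grey the other days, and the diamond is plate 5 of day 11. Within day 11, the diamond is highest for sarcomere genes (31766) and lowest for mesenchymal (4931) and endoderm genes (1485). The sums of cardiac transcription factors lie between 2213 and 2420 on day 11. Single factors differed more between the plates, with plate 5 highest for NKX2-5 and lowest for HAND1.

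Of 14 epithelial genes tested all passed the threshold, 4 higher and 10 lower. Keratins of simple epithelia were 3 of the 4 higher genes. KRT8 stood at 208, 230.2 and 217 TPM on day 4 and 2003, 1533 and 2193 TPM on day 11 (log2 fold change 3.08, SE 0.20, adjusted p 9.55e-06). KRT18 stood at 118, 147 and 138 TPM on day 4 and 955, 656 and 1191 TPM on day 11 (log2 fold change 2.75, SE 0.24, adjusted p 4.58e-05). KRT19 went from 253 ± 32.8 to 1565 ± 453 TPM (SD, n = 3; log2 fold change 2.59, SE 0.25, adjusted p 7.18e-05). RAB25, a GTPase of epithelial trafficking, was the other higher gene, at 20.9, 17.7 and 32.2 TPM on day 4 and 70.3, 64.4 and 80.3 TPM on day 11. KRT7, also a keratin, was lower, at 16.1, 12.2 and 13.9 TPM on day 4 and 3.91, 2.59 and 7.77 TPM on day 11. Among the other lower genes the claudin CLDN7 stood at 124, 159 and 173 TPM on day 4 and 24.9, 41.1 and 34.5 TPM on day 11 (log2 fold change −2.23, SE 0.21, adjusted p 6.89e-05). ESRP1, a splicing regulator, stood at 186, 154 and 180.1 TPM on day 4 and 42.2, 53.6 and 33.1 TPM on day 11 (log2 fold change −2.07, SE 0.19, adjusted p 5.45e-05). GRHL2, a transcription factor, stood at 51.3, 37.8 and 41.6 TPM on day 4 and 10.7, 15 and 13.4 TPM on day 11 (log2 fold change −1.79, SE 0.19, adjusted p 1.04e-04). No libraries of the days overlapped for KRT8, KRT18, KRT19, CLDN7, ESRP1 or GRHL2. KRT8, KRT18, KRT7, CLDN7 and GRHL2 overlap other annotated genes in their exons, and the keratins have processed copies in the genome.

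The day 11 libraries differed more among themselves than the day 4 libraries. The median SD of log2 CPM (counts scaled to library size) over genes was 0.320 on day 11 and 0.199 on day 4, and 69.8% of genes had the larger SD on day 11. Without plate 5 the day 11 median was 0.222, but an SD over fewer libraries tends to be smaller for that reason alone. This value therefore cannot be set against those of the full groups. Among genes with at least 50 CPM on day 11, the largest spread was that of FGB, a fibrinogen chain, at 171, 4.69 and 665 TPM (SD 3.7 on the log2 scale), followed by NPPA (SD 2.87) and NPNT, a matrix protein, at 7.08, 4.6 and 156 TPM (SD 2.8). LUM, AFP, PLAT (tissue plasminogen activator, 42.2, 7.07 and 145 TPM) and MAB21L2 (145, 13.5 and 306 TPM) had SDs between 2.07 and 2.48. Plate 5 was lowest for FGB, NPNT, LUM, AFP, PLAT and MAB21L2 and highest for NPPA. Some stem cell and proliferation genes varied less, and LIN28A, SALL4, TRIM71 and TOP2A had SDs of 0.274, 0.11, 0.17 and 0.183, smaller than the median over all genes. Other members of these lists, such as GDF3, CLDN6, CCNE1 and PCNA, spread more between the plates. The summed TPM of DNA replication genes differed 1.64-fold between the highest and lowest day 11 library. Summed sarcomere TPM of plate 5 was 3.12 times the mean of the other plates, and summed mesenchymal TPM 0.492 times. NPPA, NPNT and MAB21L2 overlap other annotated genes in their exons.

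**Figure D5:**
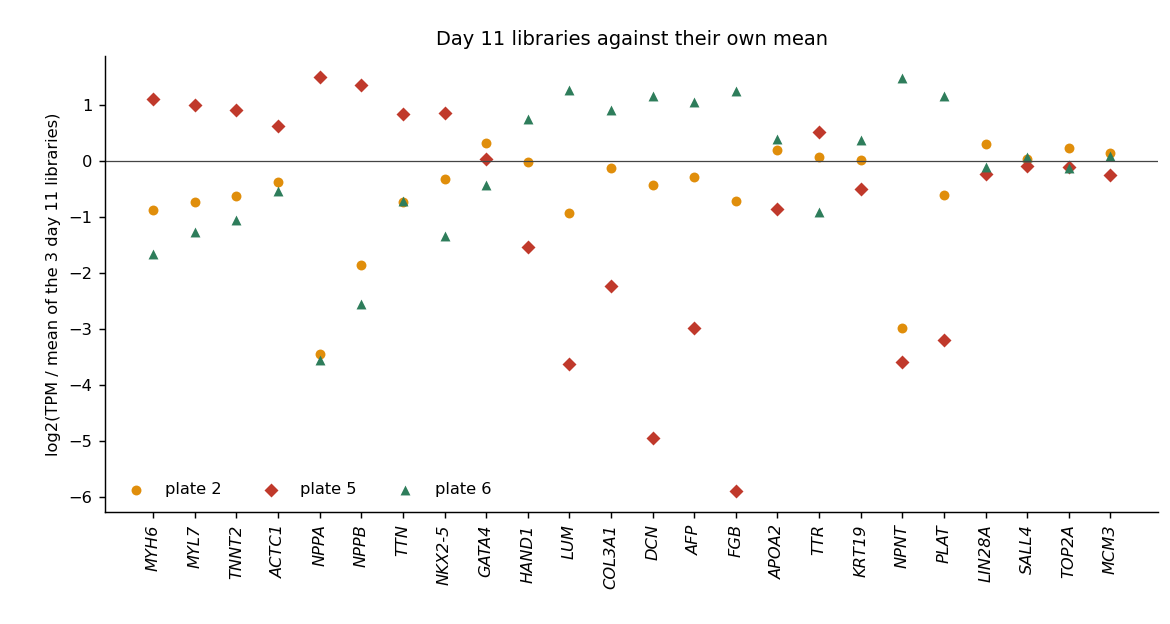
Log2 ratio of the TPM of each day 11 library to the mean of the 3 (y axis) for 24 genes (x axis); circles are plate 2, diamonds plate 5 and triangles plate 6. Plate 5 lies above the mean for sarcomere and natriuretic peptide genes and below it for LUM, COL3A1, DCN, AFP and FGB, while the 3 plates lie close together for SALL4, TOP2A and MCM3.

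The largest changes outside the lists were found by a rule of size (past the threshold, no overlap and 10 CPM or more on average where higher). Among protein-coding genes OLIG3, a neural basic helix-loop-helix factor, had 1130, 290 and 235 reads on day 4 and none on day 11. IDO1, which degrades tryptophan, stood at 103, 116 and 157 TPM on day 4 and kept 3 reads in all on day 11. NPTX1, a neuronal pentraxin, stood at 40.9, 53.8 and 463 TPM on day 4 and 0.229, 0.201 and 0.119 TPM on day 11 (log2 fold change −10.01, SE 1.40, adjusted p 0.00118). HLA-DRA, a class II histocompatibility chain, stood at 32.2, 34.9 and 38.5 TPM on day 4 with 1 read left on day 11. LHX5, a forebrain homeobox factor, stood at 164, 39.5 and 11.9 TPM on day 4 and 0.218, 0.185 and 0.153 TPM on day 11 (log2 fold change −8.61, SE 1.31, adjusted p 0.00174). Stem cell levels of NPTX1 and LHX5 varied more than 10-fold between plates. Without plate 5 of day 4 the log2 fold change of NPTX1 was −8.09, and without plate 1 that of LHX5 was −7.13. In the opposite direction HOXB1, an anterior HOX gene, had no read on day 4 and 322, 58 and 1080 reads on day 11. SUCNR1, the succinate receptor, had none on day 4 and 389, 48 and 764 reads on day 11. On day 11 both were lowest on plate 5. IDO1 and LHX5 overlap other annotated genes in their exons.

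Long noncoding RNA genes were higher on day 11 at 754 and lower at 528 of 3390 tested, and snRNA genes at 35 and 7 of 60. Over all genes tested the shares were 23.1% higher and 23.8% lower. The largest increases included GATA6-AS1 (168, 115 and 65.5 TPM on day 11), HAND2-AS1 (5.79, 4.49 and 4.32 TPM) and LINC00261 (38.2, 41.8 and 80.9 TPM). They lie beside the genes of the cardiac factors GATA6 and HAND2 and of the endoderm factor FOXA2, and had 2 to 5 reads in all on day 4. LINC02381 stood at 0.265, 0.123 and 0 TPM on day 4 and 185, 15.6 and 284 TPM on day 11 (log2 fold change 9.97, SE 1.5, adjusted p 0.00166; 9.25 without plate 6 of day 11). The largest decreases included MIR124-1HG, the host of a neural microRNA, with 2086, 962 and 1491 reads on day 4 and none on day 11, and LINC01194, with 69.7, 93.4 and 97.8 TPM on day 4 and 2 reads in all on day 11. Among the genes of highest TPM, the spliceosomal RNA RNU4-2 stood at 2546, 2702 and 2172 TPM on day 4 and 6306, 9438 and 8100.3 TPM on day 11 (log2 fold change 1.63, SE 0.19, adjusted p 1.73e-04), and RNU4-1 was higher too (1.01 ± 0.16, SE; adjusted p 0.182 with all 15 libraries in 1 fit). The imprinted small nucleolar RNA SNORD116-18 stood at 6269, 5136 and 5466 TPM on day 4 and 1209.9, 1980.5 and 1010.4 TPM on day 11 (log2 fold change −2.06, SE 0.24, adjusted p 2.12e-04), and SNORD116-19 was lower too (−2.09 ± 0.25, SE). These short RNAs belong to families of near copies, so that reads may have been assigned to the wrong member. GATA6-AS1, HAND2-AS1, LINC02381, MIR124-1HG, SNORD116-18 and SNORD116-19 overlap other annotated genes in their exons.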

How the data were processed

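Per the labels and the study's methods, total RNA of H1 cells was sequenced as stranded ribosome-depleted libraries, and the authors aligned reads with STAR 2.5.2b and counted them with featureCounts 1.5.1 on Ensembl 79 (GRCh38). The deposited values were raw counts and TPM per gene, with rRNA and mitochondrial genes removed. Whether counting used strand was not given in the sources used here. The deposited sample table also held, per the file headers, the RNA integrity score and the fraction of reads the aligner placed uniquely. The labels call the samples of a day biological replicates and number them by plate, without saying what a plate was, so that p-values measure the spread between these samples of 1 line.

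From the counts, the 3 day 11 and 3 day 4 libraries were compared with edgeR 4.0.16 (R 4.3.3), using the filterByExpr filter (minimum count 10), TMM factors, a robust quasi-likelihood fit and Benjamini-Hochberg adjustment over all 21187 genes tested. The SE is the log2 fold change divided by the square root of F. TPM was used for levels only. The fit was tested on simulated counts with 188 changed genes among 20599, far fewer than were called between the days. There it called 31 of 94 planted changes of 1 on the log2 scale and 93 of 94 of 3. A gene that did not pass may therefore still have changed 2-fold. Of the calls on simulated counts 10.1% were false at the threshold of 0.05, so genes that passed may include false calls. The gene lists and comparisons were chosen with earlier results of these data known. Named genes were the list members, the largest changes among genes called, not overlapping and averaging 10 CPM or more where higher, the highest levels of each day and the largest SDs within day 11. Promoters and microRNAs came from RefSeq (GRCh38.p14), exon overlaps from GENCODE 44. Genes left out of the tables are not analysed here. DESeq2 1.42.0, limma 3.58.1, other normalizations, filters, blocks and left-out libraries served as alternatives.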

Additional observations from a re-analysis of the deposited data

How the results depend on the processing

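Counts of genes called were within 1.5 times of the reported 4889 higher and 5041 lower under DESeq2 (4819 and 5026), other scalings, filters, limma on TPM and all 15 libraries in 1 fit (4108 and 4022). They fell to 1937 and 2136 when tested against a log2 fold change of 1, and to 3233 higher at an adjusted p under 0.01. The share of calls that were higher was 49.2%, 45.9% with upper-quartile and 52.6% with library size scaling. Without 1 library at a time they ranged from 3742 to 5434 higher and from 4101 to 5569 lower. Mitosis genes called lower fell from 25 to 16 with all 15 libraries in 1 fit. Plate numbers did not pair the samples (same-plate correlations −0.067 and 0.0526), and with the plate number as a replicate block the counts were 4317 and 4739. Plate 1 held only a day 4 library and plate 6 only a day 11 library. The day difference in that fit therefore rested on plates 2 and 5. The block ended the calls of COL1A2, GAPDH, HMGA1, LAMA4 and NPPA (adjusted p 0.206, 0.096, 0.0912, 0.254 and 0.167). Of 127 genes whose fold change is given, 109 kept direction and call under every alternative run, 18 lost the call under at least 1, and none changed sign. With all 15 libraries in 1 fit CCNE2, CD24, CDKN1A, CKB, COL1A2, EPCAM, GAPDH, HLA-C, HMGA2, PFKM, RNU4-1 and SRF lost it, and without a filter on low counts CDH5, COL1A2, ITGA6, NPPA and PLVAP. The causes were not tested. With 3 libraries a day of 1 line, changes smaller than the spread between them could not be detected, and genes near 0 counts have uncertain fold changes.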

Other observations

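Other gene groups, all from the same comparison and listed with earlier results known, changed as follows. Of 17 glycolysis genes, 13 were lower and 2 higher on day 11, with a median log2 fold change of −0.89. With all 15 libraries in 1 fit 8 were lower and 1 higher, and PFKM, GAPDH and CKB did not pass (edgeR adjusted p 0.12, 0.074 and 0.227). The glucose transporter SLC2A1 stood at 969, 1083 and 1365 TPM on day 4 and 155, 168 and 385 TPM on day 11 (log2 fold change −2.31, SE 0.38, adjusted p 0.00177; −2.89 without plate 6 of day 11). Phosphoglycerate kinase PGK1 stood at 1218, 954 and 1415 TPM on day 4 and 255, 368 and 255 TPM on day 11 (log2 fold change −2.08, SE 0.22, adjusted p 1.21e-04). Lactate dehydrogenase LDHA stood at 819, 666 and 839.5 TPM on day 4 and 229, 265 and 169 TPM on day 11 (log2 fold change −1.87, SE 0.20, adjusted p 1.29e-04). The phosphofructokinase genes PFKP (0.97 ± 0.19, SE) and PFKM (0.60 ± 0.15) were higher, PFKM not without plate 2 of day 4 (0.46). GAPDH, often used as a reference gene, fell to 60.2% of its day 4 TPM (log2 fold change −0.78, SE 0.18, adjusted p 0.00697), and it has many processed copies. Of 18 genes of fat oxidation and muscle energy, 8 were higher (44.4%) and 1 lower (5.6%), beside 23.1% and 23.8% of all genes tested. CKB was the lower gene (−0.92 ± 0.21, SE). The creatine kinase CKM stood at 0.656, 1.01 and 0.489 TPM on day 4 and 49.1, 306 and 56.6 TPM on day 11 (log2 fold change 7.50, SE 1.00, adjusted p 9.80e-04; 6.17 without plate 5 of day 11). Myoglobin (MB, 3.30 ± 0.51; 2.62 without plate 5 of day 11) and the mitochondrial coactivator PPARGC1A (3.39 ± 0.34) were higher too. PFKM, GAPDH, SLC2A1, PGK1 and PFKP overlap other annotated genes in their exons.

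Of 11 genes of HLA class I presentation, 9 were lower and none higher. With all 15 libraries in 1 fit 7 were lower. The peptide transporter TAP1 stood at 31.2, 35 and 34.5 TPM on day 4 and 0.707, 1.43 and 1.5 TPM on day 11 (log2 fold change −4.83, SE 0.29, adjusted p 5.23e-06). HLA-C stood at 406, 466 and 525 TPM on day 4 and 172, 216 and 265 TPM on day 11 (log2 fold change −1.14, SE 0.20, adjusted p 0.00155; adjusted p 0.0644 with all 15 libraries in 1 fit). HLA-B stood at 86.2, 109 and 119 TPM on day 4 and 97.8, 152 and 147 TPM on day 11 and did not pass the test (adjusted p 0.271). The light chain B2M stood at 81.8, 85.8 and 93.1 TPM on day 4 and 92.2, 116 and 147 TPM on day 11 (adjusted p 0.113). HLA genes are close copies of each other, so that reads can be assigned to the wrong member. Laminin chains and laminin receptors were higher at 4 and lower at 5 of 19 (21.1% and 26.3%), near the 23.1% and 23.8% of all genes tested. LAMB1 stood at 147, 132 and 108 TPM on day 4 and 318, 477 and 290.1 TPM on day 11 (log2 fold change 1.43, SE 0.22, adjusted p 9.06e-04) and LAMA4 at 0.762, 1.8 and 1.13 TPM on day 4 and 7.54, 39.9 and 16.5 TPM on day 11 (log2 fold change 4.07, SE 0.67, adjusted p 0.00254; 3.29 without plate 5 of day 11). Among the lower genes the receptor chain ITGA6 stood at 295, 389 and 401 TPM on day 4 and 25.2, 118 and 36.9 TPM on day 11 (log2 fold change −2.65, SE 0.57, adjusted p 0.0081; −3.56 without plate 5 of day 11; adjusted p 0.0565 without a filter on low counts), and ITGB4 was lower too (−2.63 ± 0.22, SE). ITGB1, which pairs with many alpha chains, stood at 295, 411 and 491 TPM on day 4 and 338, 546 and 432 TPM on day 11 (adjusted p 0.781). TAP1, HLA-B, LAMB1, LAMA4, ITGA6 and ITGB1 overlap other annotated genes in their exons.

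Nestin (NES), a marker of neural progenitors, stood at 348, 324 and 335 TPM on day 4 and 492, 1355 and 306 TPM on day 11 (adjusted p 0.131) with plate 5 of day 11 highest. Of 7 tested neural and ectoderm genes, 2 were higher and 2 lower (28.6% each), near the 23.1% and 23.8% of all genes tested. PAX6 was under 0.4 TPM in every library of both days. Of 3 tested blood genes 1 was higher (33.3%, beside 23.1% of all genes tested). It was RUNX1, at 0.062, 0.151 and 0.0729 TPM on day 4 and 0.58, 0.433 and 0.656 TPM on day 11 (log2 fold change 2.52, SE 0.41, adjusted p 0.00121). PTPRC, which marks white blood cells, had no read on day 11.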
